A study of Mus musculus with 4 samples.

Results

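The genes described here are the interferon-induced effector families of the mouse, measured in LSK cells of the fetal liver with and without Brpf1. They were taken by name from the deposited table: every symbol that begins with Ifit, Ifitm, Oas, Gbp, Irgm or Ifi followed by a digit, together with 17 single genes such as Bst2, Mx1, Isg15 and Usp18. The rule found 58 of 20207 genes. LSK cells carry Sca-1 and Kit but no lineage antigens, and include blood stem cells and multipotent progenitors. The 2 groups were Brpf1-null and wild-type LSK cells sorted from livers of embryos at E14.5, with cells of 4 embryos pooled per sample and about 10000 cells sorted. Which cells carried the deletion, and which driver removed Brpf1, is not given in the sources used here, and neither is the strain. Brpf1 encodes a chromatin reader that assembles histone acetyltransferase complexes.

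The labels describe 2 samples per genotype, in 2 pairs. The tables of both pairs held the same values for every gene, so each genotype counts as a single library (n = 1), and it cannot be told which pair the values come from. No difference below has a replicate check, and no p-value was computed. From the spacing of low values the Brpf1-null library held about 22159000 reads and the wild-type library about 23592000. Levels are in RPKM, reads scaled to transcript length and library size, and so can be compared between genes. Folds are ratios of RPKM, and the brackets hold the 95% Clopper-Pearson interval computed from estimated read numbers. Such an interval covers counting error only, and neither the spread between embryos nor PCR copies. Brpf1 itself was at 2.15 RPKM in the Brpf1-null library and 2.59 RPKM in the wild-type library, a ratio of 0.833 (0.695 to 0.995). This is a weak check of the labels, because values per gene do not show the reads of each exon. The source of the remaining Brpf1 reads was not tested. Of the sorting markers, Kit was at 21.3 RPKM in the Brpf1-null library and 25.6 RPKM in the wild-type library. Ly6a (Sca-1) was at 9.51 and 10.6 RPKM in that order. Other listed LSK marker genes differed in both directions. Cd34 was at 179.3 RPKM in the Brpf1-null library and 116.8 RPKM in the wild-type library, and Flt3 at 33.1 and 22.9 RPKM. Procr was lower, at 3.68 and 5.54 RPKM, as was Slamf1, a gene of few reads, at 0.0335 and 0.566 RPKM. Whether the sorted populations had the same make-up was not tested. In bulk RNA, fewer cells of a type and less RNA per cell cannot be told apart.

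Type I interferons act through the receptor chains IFNAR1 and IFNAR2 and the kinases JAK1 and TYK2 on a transcription factor complex that includes STAT2 and IRF9 and binds the interferon-stimulated response element (ISRE). Interferon gamma acts through IFNGR1 and IFNGR2, and its target promoters carry the gamma-activated sequence (GAS). The genes switched on in this way restrict viruses and intracellular microbes at entry, at RNA sensing, at translation and on vacuole membranes. Stem and progenitor cells are known to hold some of these genes at a basal level without infection, and blood stem cells leave quiescence when exposed to interferon.

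The promoters of 6 effectors are shown to let the letters be set beside the levels below: 5 genes that were higher in the Brpf1-null library, 1 of them without an ISRE match, and Irgm1, which was lower. Promoters of 38 of the 58 genes were in the RefSeq promoter set used here (build GRCm38.p6), each with 250 bases before and 50 after the start site. The other genes were not searched. The ISRE was searched as GAAANNGAAA and the GAS as TTCNNNGAA, on both strands, and matches are in capitals. In Bst2 the GAS match and a pair of ISRE matches overlap and read as 1 block. The windows are chr8:71537423-71537722 for Bst2, chr4:156200769-156201068 for Isg15, chr17:78882523-78882822 for Eif2ak2, chr11:48871371-48871670 for Irgm1 and chr7:141016843-141017142 for Ifitm6, all on the minus strand, and chr19:34583279-34583578 on the plus strand for Ifit3. All are written 5′ to 3′ along the gene.
Bst2: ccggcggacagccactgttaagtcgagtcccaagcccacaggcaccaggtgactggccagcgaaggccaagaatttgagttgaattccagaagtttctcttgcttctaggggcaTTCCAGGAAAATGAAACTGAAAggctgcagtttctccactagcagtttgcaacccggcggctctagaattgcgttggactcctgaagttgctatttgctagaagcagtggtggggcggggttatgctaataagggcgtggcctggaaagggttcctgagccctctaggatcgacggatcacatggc
Isg15: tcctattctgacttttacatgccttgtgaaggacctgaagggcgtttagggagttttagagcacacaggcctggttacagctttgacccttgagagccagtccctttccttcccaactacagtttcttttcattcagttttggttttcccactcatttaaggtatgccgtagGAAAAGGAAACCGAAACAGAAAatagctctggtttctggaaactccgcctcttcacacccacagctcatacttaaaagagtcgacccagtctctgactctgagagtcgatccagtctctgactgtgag
Ifit3: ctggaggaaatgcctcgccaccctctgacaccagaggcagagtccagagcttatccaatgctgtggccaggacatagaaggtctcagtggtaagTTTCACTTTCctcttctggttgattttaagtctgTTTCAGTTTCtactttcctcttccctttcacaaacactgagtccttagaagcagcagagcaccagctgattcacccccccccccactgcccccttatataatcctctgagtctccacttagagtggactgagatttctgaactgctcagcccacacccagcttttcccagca
Eif2ak2: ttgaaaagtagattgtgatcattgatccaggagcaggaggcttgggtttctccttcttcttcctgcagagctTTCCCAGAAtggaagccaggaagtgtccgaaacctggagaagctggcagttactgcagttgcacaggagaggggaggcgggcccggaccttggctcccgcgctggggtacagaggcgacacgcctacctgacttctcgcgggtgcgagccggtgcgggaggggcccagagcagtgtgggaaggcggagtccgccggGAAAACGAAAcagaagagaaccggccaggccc
Ifitm6: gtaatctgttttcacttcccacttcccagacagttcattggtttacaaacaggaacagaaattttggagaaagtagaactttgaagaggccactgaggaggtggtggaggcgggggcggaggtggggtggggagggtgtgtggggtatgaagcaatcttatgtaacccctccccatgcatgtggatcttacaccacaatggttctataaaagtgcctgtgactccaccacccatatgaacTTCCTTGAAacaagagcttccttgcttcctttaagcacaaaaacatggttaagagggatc
Irgm1: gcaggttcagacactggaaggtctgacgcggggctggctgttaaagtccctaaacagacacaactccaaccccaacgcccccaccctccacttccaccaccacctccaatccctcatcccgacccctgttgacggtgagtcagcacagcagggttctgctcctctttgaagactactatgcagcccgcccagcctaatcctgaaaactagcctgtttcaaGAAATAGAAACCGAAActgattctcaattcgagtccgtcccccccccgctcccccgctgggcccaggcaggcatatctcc

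Of the 38 genes with a promoter, 22 (57.9%) held an ISRE match, against 3.44% of the 32851 promoters in the table. A GAS match was present in 12 (31.6%), against 8.30% of all promoters. These shares differ in unit: a gene with several promoter windows was counted if any of them held a match, while all promoters were counted singly. The Isg15 promoter carried 3 overlapping ISRE matches, the first of them 78 bases before the start site. Bst2 carried 2, the first 130 bases before it, and Ifit3 carried 2, at 156 and 122 bases before it. In Irgm1, which was lower in the Brpf1-null library, 2 ISRE matches lay 30 and 24 bases before the start. Ifitm6, the gene with the second highest ratio, had no ISRE match and 1 GAS match, 10 bases before the start. Among the 29 genes with a promoter and an average of 1 RPKM or more over both libraries, the 19 with an ISRE match had a median log2 change of 0.30 and ran from −0.65 to 2.65. The 10 without one had a median of 0.14 and ran from −1.15 to 2.06. Genes at least 1.5-fold higher numbered 4 of those 19 and 3 of those 10, against 14.1% of the 9380 genes averaging 1 RPKM or more. Genes at least 1.5-fold lower numbered 2 and 1, against 9.42%. For sets of 19 and 10 genes this is close to the background. Mx1 and Zbp1, also at least 1.5-fold higher, had no promoter in the set and are not in these counts. A match is a description of the letters in this window, and the ranges of both sets overlapped over most of their length.

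**Figure D1:**
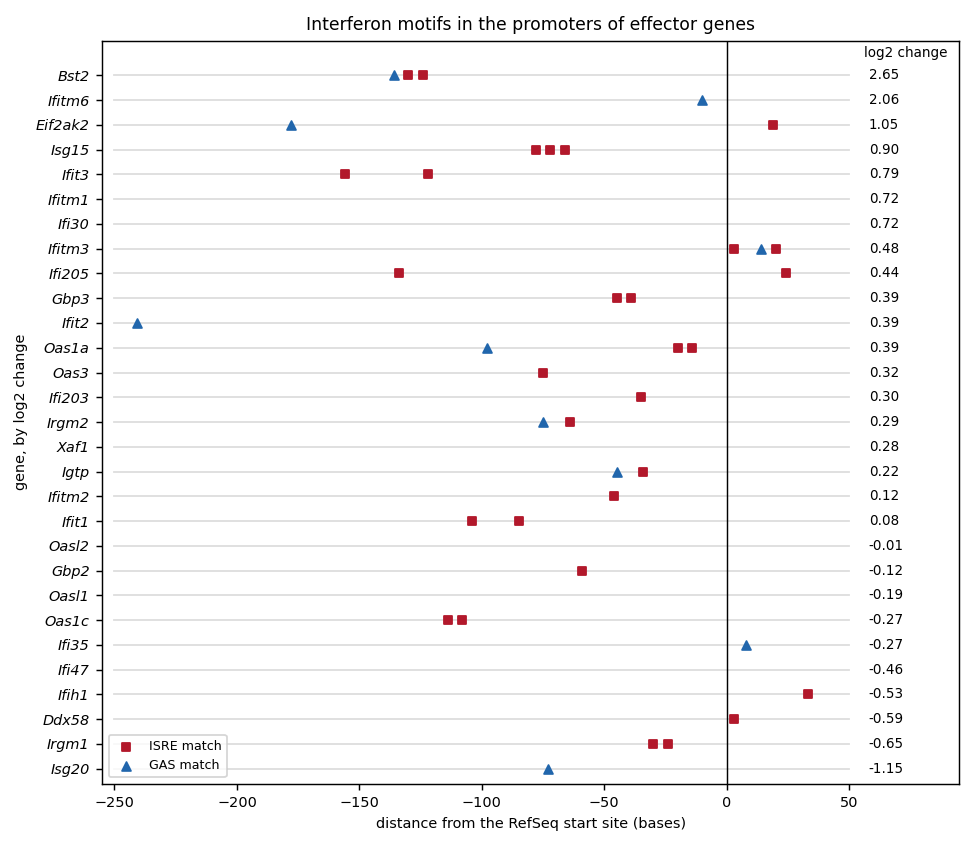
Positions of ISRE matches (squares) and GAS matches (triangles) along the promoters of 29 effector genes, in bases from the RefSeq start site, with genes ordered from the highest log2 change (Brpf1-null over wild-type, printed at the right) to the lowest. ISRE matches occur among higher genes such as Bst2, at 2.65, and lower ones such as Irgm1, at −0.65, while Ifitm6, at 2.06, and Isg20, the lowest at −1.15, have a GAS match and no ISRE match.

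A small set of effectors was higher in the Brpf1-null library, and most others lay within 1.5-fold. At a 1.5-fold call, defined next, Bst2, Ifitm6, Mx1, Eif2ak2, Ifit3, Zbp1, Isg15, Ifitm1 and Ifi30 were higher, whereas Isg20, Ddx58 and Irgm1 were lower. The change was scored as log2 of Brpf1-null over wild-type after 1 RPKM was added to each, which understates the change of low genes, and a gene was called at 1.5-fold on that scale. Of the 58 genes, 41 averaged 1 RPKM or more over both libraries. Among these 41, 9 were at least 1.5-fold higher (22.0%), against 14.1% of the 9380 genes with such a level. At least 1.5-fold lower were 3 (7.32%), against 9.42% of all, and 29 lay within 1.5-fold, as did 76.5% of all. At 2-fold on the same scale 3 were higher, Bst2, Ifitm6 and Eif2ak2, against 4.14% of all, and 1 was lower, Isg20, against 3.46%. Their median log2 change was 0.22, against 0.04 for all 9380 genes. It was 0.11 with the libraries centred on their medians, which moved the median of all genes to −0.07. Since only 1 library per genotype was read, these shares describe the pair of libraries and were not tested. The counting interval of the ratio excluded 1 for 31 of the 41 genes, but it did so for 72.3% of all genes with an interval, so a narrow interval does not single these genes out.

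**Figure D2:**
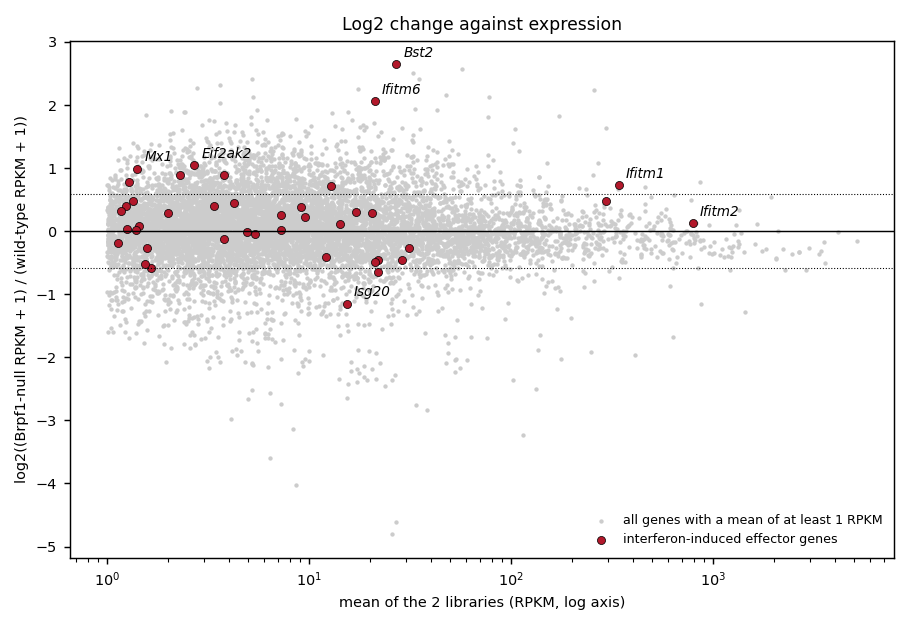
Log2 change (Brpf1-null over wild-type, with 1 RPKM added) against the mean of both libraries on a log axis. Grey points are the 9380 genes averaging 1 RPKM or more, red points the 41 effector genes, and dotted lines mark 1.5-fold. Bst2, at 2.65, has the highest log2 change of all plotted genes, and 29 of the red points lie between the dotted lines.

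The first barrier is at the cell membrane. Bst2 encodes tetherin, a membrane protein that holds budding virus particles on the cell surface. It was at 47.1 RPKM in the Brpf1-null library, against 6.68 RPKM in the wild-type library, a ratio of 7.05 (5.83 to 8.57). That log2 change of 2.65 was the highest of the 9380 genes, and it stayed between 2.49 and 2.60 under centring, quantile normalization and removal of a trend on GC content. It placed Bst2 at percentile 94.1 of all genes in the Brpf1-null library and 77.0 in the wild-type library.

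BST2 is also a surface antigen of plasmacytoid dendritic cells in the mouse. Of 8 listed marker genes of that cell type, 6 averaged 1 RPKM or more, and 0 were higher and 4 lower by 1.5-fold. Their summed level was 29.8 RPKM in the Brpf1-null library and 59.8 RPKM in the wild-type library, Klk1 was listed at 0 in both, and Siglech, a defining receptor of these cells, was at 0.338 and 2.59 RPKM in the same order. Of the other measured markers, Pacsin1 had a ratio of 1.11 and Tcf4 of 0.876, and the part of these cells in the Bst2 level was not tested. Of 13 monocyte and macrophage markers, 12 had that mean, 10 of these were higher and 0 lower by 1.5-fold, and none was at 0 in both libraries. The 2 within 1.5-fold were Lyz2, with a ratio of 1.02, and Emr1, with a ratio of 0.755 (0.621 to 0.920). Among all genes with that mean, 14.1% were higher and 9.42% lower. They summed to 387 RPKM in the Brpf1-null library and 234 RPKM in the wild-type library, and their part in the levels of Bst2, Ifitm6 and Ifi30 was not tested.

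The IFITM proteins block fusion of viruses with endosomal membranes, and their genes were by far the most abundant effectors. Ifitm1, Ifitm2 and Ifitm3 held 81.0% of the summed RPKM of all 58 genes in the Brpf1-null library and 79.4% in the wild-type library. Ifitm2 was at 825.8 and 757.5 RPKM in the Brpf1-null and wild-type libraries, a ratio of 1.09 (1.06 to 1.12). Ifitm3 was at 342.4 RPKM in the Brpf1-null library and 244.9 RPKM in the wild-type library, 1.398-fold higher (1.34 to 1.46) and within the 1.5-fold call. Ifitm1 was at 424.1 RPKM in the Brpf1-null library, against 256.2 RPKM in the wild-type library, 1.66-fold higher (1.59 to 1.72). The counting intervals of these 3 neighbours did not overlap, so their ratios differed by more than counting error.

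Ifitm6, expressed in cells of the myeloid lineage, departed furthest from its neighbours. It was at 34.7 RPKM in the Brpf1-null library and 7.58 RPKM in the wild-type library, 4.58-fold higher (3.72 to 5.61). Ifitm5, a bone-restricted member, was at 0.254 and 0.119 RPKM, and Ifitm7 was listed at 0 in the Brpf1-null library and at 0.232 RPKM in the wild-type library. Along the chromosome the protein-coding members follow in the order Ifitm5, Ifitm2, Ifitm1, Ifitm3 and Ifitm6, so the low and high ratios did not form a gradient along the cluster. Reads of Ifitm2 may be shared, since 48.5% of its 50-base words occur in transcripts of other annotated genes, against 10.02% for Ifitm3 and 5.02% for Ifitm1.

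**Figure D3:**
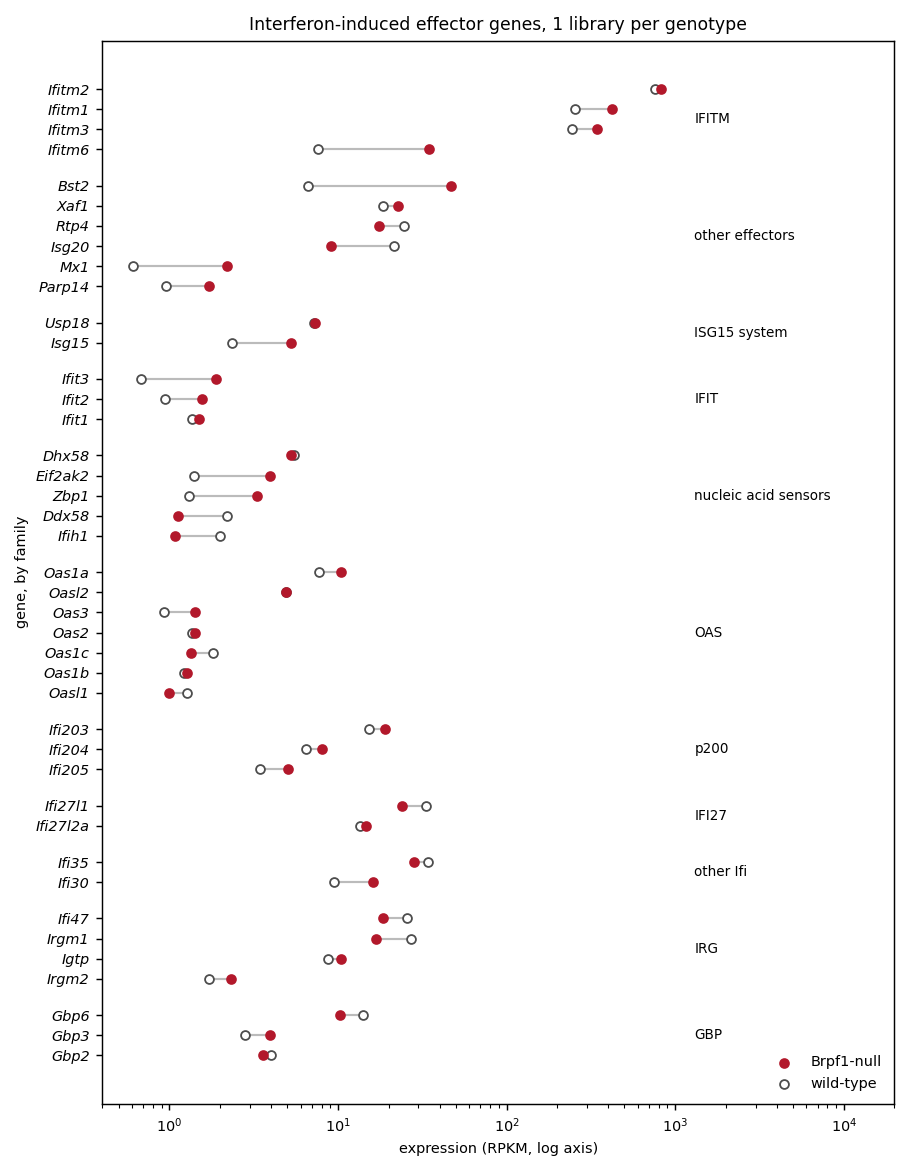
Expression in RPKM (log axis) of the 41 effector genes that average 1 RPKM or more, grouped by family; filled points are the Brpf1-null library, open points the wild-type library, and there is no error bar because each genotype has 1 library. Ifitm1, Ifitm2 and Ifitm3 lie above 200 RPKM in both libraries, and the widest gaps belong to Bst2 and Ifitm6.

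ISG15 is a ubiquitin-like protein that is joined to target proteins in 3 steps, and its genes lay on both sides of the wild-type level. Isg15 was at 5.24 RPKM in the Brpf1-null library and 2.35 RPKM in the wild-type library, 2.23-fold higher (1.53 to 3.30). Ube1l, which encodes the activating enzyme of this pathway (Uba7), was at 9.69 and 7.45 RPKM in the same order, 1.30-fold higher (1.16 to 1.46). Ube2l6, which encodes the conjugating enzyme, was at 29.75 RPKM in the Brpf1-null library, against 96.9 RPKM in the wild-type library, 3.26-fold lower (3.04 to 3.50). Usp18, which removes ISG15 from proteins and also damps signalling at IFNAR2, was at 7.29 and 7.16 RPKM, a ratio of 1.02 (0.863 to 1.202). By RNA level, Isg15 was called higher and Ube2l6 lower, and Ube1l and Usp18 lay within 1.5-fold.

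The genes that sense viral RNA also split. Eif2ak2 encodes PKR, a kinase that stops translation when it binds double-stranded RNA. It was at 3.97 RPKM in the Brpf1-null library and 1.41 RPKM in the wild-type library, 2.82-fold higher (2.33 to 3.45). Zbp1, a sensor of Z-form nucleic acid that triggers cell death, was at 3.28 and 1.30 RPKM in that order, 2.53-fold higher (1.75 to 3.73). Ddx58, which encodes the RNA helicase sensor RIG-I, was at 1.12 RPKM in the Brpf1-null library, against 2.19 RPKM in the wild-type library, 1.95-fold lower (1.53 to 2.52).

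Ifih1, which encodes the related sensor MDA5, was at 1.075 RPKM in the Brpf1-null library and 1.986 RPKM in the wild-type library. Its ratio was 1.85-fold lower (1.46 to 2.36), but with 1 RPKM added its log2 change of −0.53 did not reach 1.5-fold. Ddx58, at −0.59, and Irgm1, at −0.65, were the genes just past that line, and Ifih1 and Rtp4, at −0.48, those just short of it. The Ddx58 call was lost after removal of the GC trend, where its change was −0.50, and Ifih1 passed the line after centring, at −0.64. Dhx58, which encodes the regulator LGP2, was at 5.28 and 5.50 RPKM in the Brpf1-null and wild-type libraries. Of these 5 sensors, then, Eif2ak2 and Zbp1 were called higher, Ddx58 was called lower, and Ifih1 and Dhx58 lay within 1.5-fold. Mavs, which encodes the adaptor shared by RIG-I and MDA5, was at 7.69 and 7.71 RPKM in the same order.

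IFIT proteins bind the ends of viral RNA and block its translation. The 3 genes lie side by side, and Ifit3 alone passed 1.5-fold on the scale with 1 RPKM added. Ifit3 was at 1.89 RPKM in the Brpf1-null library and 0.677 RPKM in the wild-type library, 2.79-fold higher (1.77 to 4.46). Ifit2 was at 1.55 and 0.942 RPKM in that order, a ratio of 1.64 (1.24 to 2.18), and Ifit1 at 1.501 and 1.36 RPKM, a ratio of 1.10 (0.809 to 1.503) whose log2 change turned to −0.03 after centring. The log2 change of Ifit2 was 0.39, and after removal of the GC trend it was 0.60, past 1.5-fold. Reads of Ifit3 cannot be fully separated from those of its copy Ifit3b, since 51.2% of its 50-base words occur in that gene.

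OAS proteins make oligoadenylates that switch on RNase L. Of 12 OAS-family genes, 7 averaged 1 RPKM or more, and all 7 lay within 1.5-fold with 1 RPKM added. So did 76.5% of all genes, and for 7 genes this is close to the background. The most abundant, Oas1a, was at 10.4 RPKM in the Brpf1-null library and 7.71 RPKM in the wild-type library, a ratio of 1.35 (1.17 to 1.56). Its reads may be shared, since 57.6% of its 50-base words also occur in Oas1g. Oasl2 was at 4.89 and 4.93 RPKM, Oas2 at 1.41 and 1.37 RPKM, Oas1b at 1.28 and 1.22 RPKM, and Oas3 at 1.41 and 0.932 RPKM, with the Brpf1-null value first in each. The ratio of Oas3 was 1.51 (1.17 to 1.97), within 1.5-fold only once 1 RPKM was added. Oas1c, at 1.34 and 1.81 RPKM, and Oasl1, at 0.996 and 1.27 RPKM, lay lower in the Brpf1-null library with intervals that include a ratio of 1. The signs of Oasl2, Oas2 and Oas1b turned under at least 1 scaling, so no direction is given for them. Oas1g, below that mean, was at 1.04 RPKM in the Brpf1-null library and 0.2545 RPKM in the wild-type library, but 54.1% of its 50-base words also occur in Oas1a. Oas1d, Oas1e, Oas1f and Oas1h were listed at 0 in both libraries.

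Mx1 and Mx2 encode dynamin-like GTPases that trap viral nucleocapsids. Mx1 was at 2.20 RPKM in the Brpf1-null library and 0.61 RPKM in the wild-type library, 3.61-fold higher (2.50 to 5.29), while Mx2 was at 0.2415 and 0.489 RPKM, the opposite order at a level of few reads. Isg20, an exonuclease that degrades single-stranded RNA, was the effector with the lowest log2 change, −1.15. It was at 9.13 RPKM in the Brpf1-null library, against 21.5 RPKM in the wild-type library, 2.35-fold lower (1.99 to 2.79). Markers of other cells were lower in the same library: 6 of 6 measured B cell markers, 9 of 9 hepatocyte markers and 7 of 7 erythroid markers. They summed to 81.3, 521 and 86.7 RPKM in the Brpf1-null library, against 261, 2013 and 595 RPKM in the wild-type library, with the B cell factor Pax5 at 0 in both. Of 6 neutrophil markers, 4 were lower, Lcn2, S100a8, S100a9 and Ngp, and 1 was higher, Mpo, and their sum was 832 RPKM in the Brpf1-null library and 646 RPKM in the wild-type library. The part of these cells in the levels of Isg20, Irgm1, Ube2l6 and Ifitm6 was not tested. Rsad2, which encodes viperin, was at 1.15 and 0.67 RPKM with a mean below the minimum, and Parp14, an ADP-ribosyltransferase, at 1.71 and 0.956 RPKM, a ratio of 1.79 (1.47 to 2.18) that stayed within 1.5-fold once 1 RPKM was added. Xaf1, a pro-apoptotic factor, was at 22.65 and 18.45 RPKM, and Rtp4, a receptor-transporting protein, at 17.45 RPKM in the Brpf1-null library and 24.8 RPKM in the wild-type library, 1.42-fold lower (1.28 to 1.58).

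**Figure D4:**
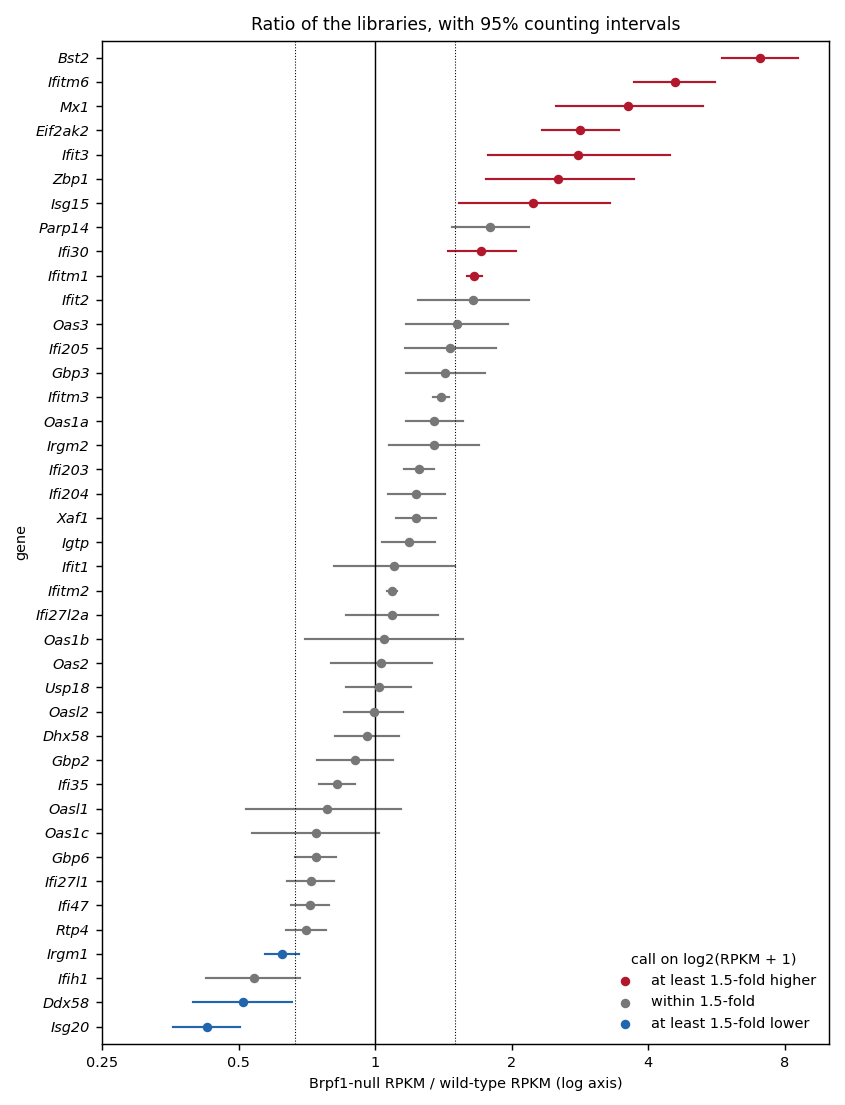
Ratio of Brpf1-null to wild-type RPKM (log axis) for the 41 effector genes, ordered by ratio, with bars for the 95% counting interval and dotted lines at 1.5-fold. Colours give the call on the scale with 1 RPKM added, so the low genes Parp14, Ifit2, Oas3 and Ifih1 lie past a dotted line without a call, and Bst2 at 7.05 and Isg20 at 0.425 form the ends.

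The GTPases of the IRG and GBP families, which are induced above all by interferon gamma and attack the vacuoles of intracellular microbes, are described together. Of 12 such genes, 7 averaged 1 RPKM or more, of which 0 were higher and 1 lower by 1.5-fold, against 14.1% and 9.42% of all genes, which for 7 genes is close to the background. Their median log2 change was −0.12, against 0.04 for all genes. The 34 other effectors with that mean had 9 higher and 2 lower and a median of 0.27; the difference between the groups was not tested. Irgm1, a regulatory GTPase known to be needed for stem cell maintenance in mice, was at 16.8 RPKM in the Brpf1-null library, against 27.0 RPKM in the wild-type library, 1.61-fold lower (1.47 to 1.76). Its log2 change of −0.65 was −0.55 after removal of the GC trend, short of 1.5-fold. Ifi47, another IRG protein gene, was at 18.4 and 25.65 RPKM in that order, 1.396-fold lower (1.27 to 1.54).

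The IRG genes Igtp and Irgm2 had ratios above 1. Igtp was at 10.4 RPKM in the Brpf1-null library and 8.76 RPKM in the wild-type library, and Irgm2 at 2.31 and 1.71 RPKM. These genes are neighbours and share 162 exon bases, so their reads are not fully separate. Gbp6 was at 10.3 RPKM in the Brpf1-null library and 14.0 RPKM in the wild-type library, 1.35-fold lower (1.22 to 1.51), but 90.2% of its 50-base words also occur in an annotated transcript that spans it and Gbp10. Gbp2 was at 3.59 and 3.98 RPKM and Gbp3 at 3.97 and 2.79 RPKM. All of these genes but Irgm1 lay within 1.5-fold, and the interval of Gbp2 holds a ratio of 1.

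The p200 genes encode proteins that bind DNA, most of them nuclear. Their 3 measured members had ratios above 1, and all 3 lay within 1.5-fold, as did 76.5% of all genes. Ifi203 was at 19.0 RPKM in the Brpf1-null library and 15.3 RPKM in the wild-type library, Ifi204 at 7.996 and 6.5 RPKM, and Ifi205 at 5.04 and 3.46 RPKM. After removal of the GC trend the log2 changes of Ifi203 and Ifi205 were 0.59 and 0.72, past 1.5-fold. These genes form a cluster of copies: 49.5% of the 50-base words of Ifi205 occur in Ifi211 and 23.2% of those of Ifi204.

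The remaining Ifi genes are related by name and not by protein family. Ifi30 encodes a lysosomal thiol reductase of antigen-presenting cells and was at 16.2 RPKM in the Brpf1-null library and 9.43 RPKM in the wild-type library, 1.72-fold higher (1.44 to 2.04). Ifi35, which encodes a cytosolic partner of NMI, was at 28.1 and 34.1 RPKM, 1.22-fold lower (1.11 to 1.33). Ifi27l1, now named Ifi27, was at 24.01 and 33.3 RPKM, 1.39-fold lower (1.23 to 1.56), while its neighbour Ifi27l2a was at 14.7 and 13.6 RPKM, a ratio of 1.09 (0.860 to 1.37). Both encode small membrane proteins, both lay within 1.5-fold, and the log2 change of Ifi27l2a was 0.00 after centring.

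The 17 genes with a mean under 1 RPKM add little. Of these, 8 were listed at 0 in both libraries, which are the 4 OAS genes above, Gbp1, Gbp10, Ifi202b and Ifi27l2b. Of these, Gbp10 had 82.5% of its 50-base words in other genes, and the others at most 11.0%, in Oas1e. A listed 0 is not read as absence, and among all genes 29.6% were listed at 0 in both. Oas1g and Rsad2 reached 1 RPKM in the Brpf1-null library alone. The other 7 lay under 0.7 RPKM in both libraries, among them Iigp1 at 0.521 and 0.619 RPKM, Gbp4 at 0.4826 and 0.274 RPKM and Ifi44 at 0.0619 RPKM in the Brpf1-null library, against 0.378 RPKM in the wild-type library. The estimated reads of Ifi44 were 4 and 26, a 6.11-fold lower level (2.12 to 24.1). Counting all 58 genes without the minimum, 10 were higher and 3 lower by 1.5-fold, against 7.12% and 5.34% of all 20207 genes.

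Upstream of the effectors, no interferon gene averaged 1 RPKM. All 19 ligand genes lay under the minimum, 18 of them listed at 0 in both libraries, and Ifnk was listed at 0 in the Brpf1-null library and 0.103 RPKM in the wild-type library. Of the 6 receptor genes, 5 averaged 1 RPKM or more. Ifnar2, the signalling chain of the type I receptor, was at 15.0 RPKM in the Brpf1-null library and 5.26 RPKM in the wild-type library, 2.86-fold higher (2.48 to 3.32). Its partner Ifnar1 was at 15.2 and 13.0 RPKM, a ratio of 1.17 (1.08 to 1.27), so both chains were at about the same level in the Brpf1-null library but not in the wild-type library. Ifngr2 was at 11.5 and 6.29 RPKM, 1.83-fold higher (1.65 to 2.04), and Ifngr1 at 37.3 and 31.9 RPKM. Il10rb, a shared chain of the lambda interferon receptor, was at 12.7 and 12.3 RPKM, and Il28ra, its specific chain, was listed at 0 in both.

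In the signalling list 4 of 14 measured genes were higher (28.6%) and 0 lower by 1.5-fold, against 14.1% and 9.42% of all genes. The median log2 change was 0.10, against 0.04 for all genes. Tyk2, the kinase bound to IFNAR1, was at 4.30 RPKM in the Brpf1-null library and 1.645 RPKM in the wild-type library, 2.61-fold higher (2.20 to 3.12). Irf7, which amplifies type I interferon production, was at 8.14 and 4.25 RPKM, 1.91-fold higher (1.60 to 2.30). Ptpn1 and Ptpn6, phosphatases that act on JAK kinases, were 1.96-fold (1.77 to 2.18) and 1.75-fold higher (1.675 to 1.83).

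Of the genes of the transcription factor complex, Stat2 was at 2.51 RPKM in the Brpf1-null library and 1.47 RPKM in the wild-type library, a ratio of 1.70 (1.38 to 2.09). Irf9, which gives the complex its DNA contact, was at 9.20 and 13.05 RPKM, 1.42-fold lower (1.27 to 1.59). Both stayed within 1.5-fold on the scale with 1 RPKM added. Jak1 was at 30.2 and 29.8 RPKM, and the repressor Irf2 at 11.5 and 14.1 RPKM.

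In the nucleic acid sensing list 1 of 16 measured genes was higher (6.25%) and 0 lower by 1.5-fold, against 14.1% and 9.42% of all genes. For 16 genes this is close to the background. The median was 0.08, against 0.04 for all genes. The one higher was Trex1, an exonuclease that clears cytosolic DNA, at 29.97 RPKM in the Brpf1-null library and 19.1 RPKM in the wild-type library, 1.57-fold higher (1.39 to 1.76). Larger ratios belonged to Aim2, 1.87 (1.41 to 2.47), Ticam1, 1.69 (1.36 to 2.09), and Ikbke, 1.64 (1.38 to 1.95). These low genes stayed within 1.5-fold once 1 RPKM was added. Tmem173, which encodes STING, was at 35.45 and 37.7 RPKM, Samhd1 at 17.1 and 16.3 RPKM and Rnaseh2a at 38.9 and 49.0 RPKM. The endosomal RNA sensor Tlr7 was at 0.516 and 1.253 RPKM, below the minimum.

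Of 32 measured interferon-induced genes outside the named families, 8 were higher (25.0%) and 2 lower (6.25%) by 1.5-fold, against 14.1% and 9.42% of all genes. The median was 0.16, against 0.04 for all genes. The 8 were the chemokine gene Ccl5, at 9.23 RPKM in the Brpf1-null library and 1.35 RPKM in the wild-type library, the peptide transporter gene Tap1, 2.53-fold higher (2.18 to 2.955), and Trafd1, Tor3a, Lgals3bp, Slfn2, Slfn8 and Tdrd7, with ratios between 1.58 and 2.14. Ccl5 is also made by T and NK cells, whose 8 listed markers had 2 with that mean, 1 higher and 0 lower, and summed to 59.0 RPKM in the Brpf1-null library and 40.4 RPKM in the wild-type library. Most of that sum was Nkg7, at 53.35 and 38.4 RPKM in that order and within 1.5-fold. The higher marker was Cd4, at 4.29 and 1.01 RPKM. Cd3e and Gzmb were listed at 0 in both, and the part of these cells in the Ccl5 level was not tested. Beside Ube2l6 the lower gene was Lgals9, a galectin, at 105.2 and 193.6 RPKM, 1.84-fold lower (1.77 to 1.92). The abundant members Ly6e, at 214.5 and 197.8 RPKM, and Psmb8, an immunoproteasome subunit, at 154.2 and 192.9 RPKM, lay within 1.5-fold.

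**Figure D5:**
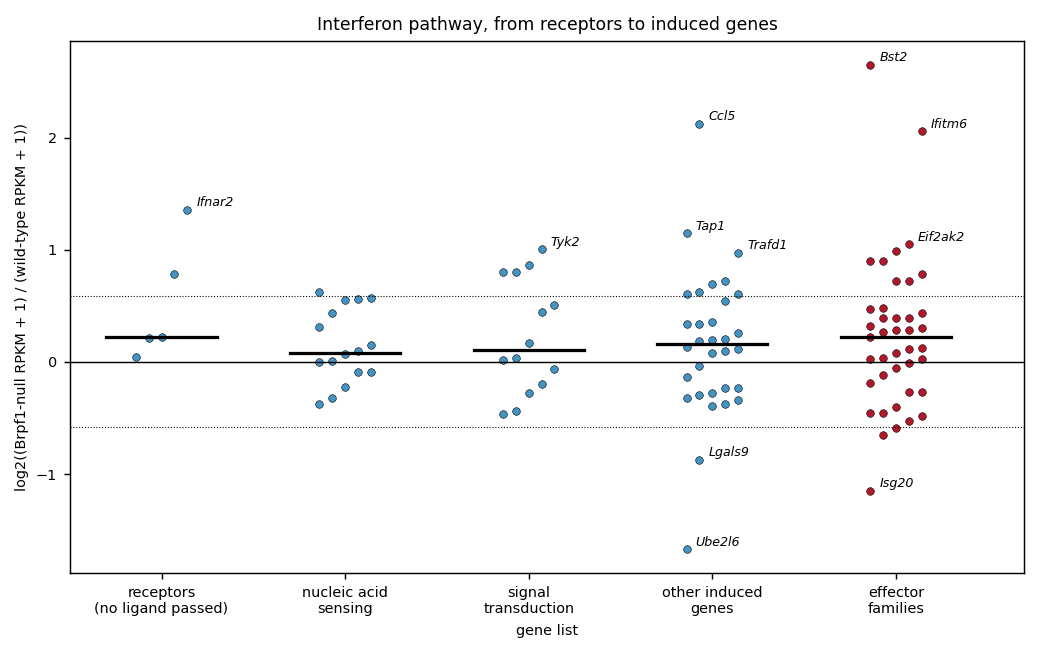
Log2 change (Brpf1-null over wild-type, with 1 RPKM added) of each gene averaging 1 RPKM or more in 4 interferon pathway lists (blue) and the effector families (red); thick lines are medians and dotted lines mark 1.5-fold. The medians run from 0.08 for nucleic acid sensing to 0.22 for the effectors, each list holds genes within 1.5-fold, and Ifnar2, Tyk2, Ccl5 and Bst2 lead their columns.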

How the data were processed

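RNA-seq of Brpf1-null and wild-type fetal liver LSK cells was analysed, with groups taken from the genotype labels. TopHat and mm9 are named in the submitters' processing notes. The sources used here do not give the annotation, the counting program, strand use or filters. Per the file headers, the values deposited by the authors are RPKM for pair 1 and FPKM for pair 2. The tables matched in all 20207 symbols and 0 values differed, so they were read as 1 library per genotype. The deposited fold, which has wild-type on top, and the deposited log2 were not used.

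Changes are log2((Brpf1-null RPKM + 1)/(wild-type RPKM + 1)), for genes averaging at least 1 RPKM. Library sizes were chosen so that low values of genes with a single RefSeq-supported length in GENCODE M21 became whole reads: within 0.05 read, 58.1% of 1289 Brpf1-null and 55.9% of 1248 wild-type values did, against 13.3% and 11.3% with sizes raised by 5%. Read numbers per gene are therefore approximate. The procedure was tested on simulated data. Computation used Python 3.11.15, pandas 2.3.3, scipy 1.17.1 and statsmodels 0.14.6. The planned rule names every effector above that minimum. The genes and lists were chosen with earlier results of these data known. Alternatives were other pseudocounts, filters, fold thresholds, median centring, quantile normalization and removal of a trend on transcript GC content (lowess, span 0.3). One gene of the signalling list is not reported here by name.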

Additional observations from a re-analysis of the deposited data

How the results depend on the processing

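The 9 effectors at least 1.5-fold higher became 3 with a pseudocount of 5 RPKM, 4 among the 21 averaging 5 RPKM or more, and 3 at a call of 2-fold. The share of all genes called higher was 5.91% with that pseudocount and 14.3% with that mean. The 3 lower became 1 with a pseudocount of 5 RPKM, 1 after removal of the GC trend, 1 at 2-fold and 5 after median centring. The share of all genes called lower was 4.19% with that pseudocount, 8.78% after removal of the GC trend and 12.8% after centring. At 2-fold, 4.14% of all genes were higher and 3.46% lower. Over the other settings the higher count ran from 9 to 12 and the lower from 2 to 4. In those settings the share of all genes called higher ran from 7.12% with no filter to 18.6% with a pseudocount of 0.1 RPKM. The share called lower ran from 5.34% to 12.4% between the same settings. The median log2 change of the effectors lay between 0.03, with no filter, and 0.24. Median centring gave all genes a median of −0.07, against 0.04 without it, with 961 higher and 1204 lower, against 1323 and 884. The receptor and ligand list had a median of 0.00 with no filter, since most ligands were listed at 0. After centring, the medians of the signalling and sensing lists were −0.01 and −0.03. Of 41 effectors, 36 kept their sign under all 3 scalings and 0 that were called reversed; the exceptions were Ifit1, Oas1b, Oas2, Oasl2 and Usp18. No paired analysis was possible because the tables of both pairs hold the same values, and for the same reason no replicate could be left out. With 1 library per genotype, the spread between pools is unknown.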
